A study of Rattus norvegicus with 34 samples.

Results

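The enzymes that break down the branched-chain amino acids (BCAAs) leucine, isoleucine and valine were followed through 10 genes, Bcat2, Bckdha, Bckdhb, Dbt, Bckdk, Ppm1k, Ivd, Mccc1, Auh and Acadsb, chosen by their symbols. Each of the 10 was measured by 1 of the 29214 transcript clusters on the array, groups of probes summed to 1 value per gene. The identifiers of these clusters are 10706884 for Bcat2, 10719863 for Bckdha, 10911976 for Bckdhb, 10818594 for Dbt, 10711234 for Bckdk, 10855853 for Ppm1k, 10838704 for Ivd, 10822799 for Mccc1, 10794229 for Auh and 10711664 for Acadsb. No member was lost to a filter on low signals, since none was applied.

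The study compared male Wistar rats 2 months after ligation of the proximal left coronary artery with sham-operated rats, in which the suture was not tied. Left ventricular (LV) tissue gave 23 Affymetrix Rat Gene ST arrays, from 6 sham rats, 6 with a small (S-MI), 6 with a moderate (M-MI) and 5 with a large myocardial infarct (L-MI). Peripheral blood mononuclear cells (PBMCs) gave 11 arrays, from 6 sham rats and 5 with L-MI. The question was how the failing heart of rats with L-MI differed from the compensated hearts of rats with S-MI and M-MI, and whether the blood cells showed the same. All rats shared the anaesthesia and thoracotomy, and their age is not given in the sources used here. The whole LV was taken from sham rats but after infarction only myocardium free of visible scar was used, so the groups also differ in the region sampled. The description of L-MI replicate 1, in both tissues, speaks of compensated injury, whereas its title and its infarct size label put it in L-MI. It was kept as L-MI, and results are also given without it. Which LV and PBMC arrays come from the same rat is not in the labels.

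BCAA breakdown starts with the removal of the amino group by a transaminase, of which Bcat2 encodes the mitochondrial form. The resulting keto acids are oxidized by the branched-chain keto acid dehydrogenase complex, the step that commits them to breakdown, and separate routes for each amino acid then feed the carbon into the citric acid cycle. The kinase Bckdk switches the complex off by phosphorylation and the phosphatase Ppm1k switches it on. Heart muscle is rich in mitochondria and can oxidize BCAA keto acids as a minor fuel.

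Promoter sequences of RefSeq, 250 bases before to 50 after the annotated start on the rat assembly GRCr8, were at hand for 8 of the 10 genes, all except Bckdha and Ppm1k. The GC box, GGGCGG on either strand, stood in 8 of these 8 promoters, in 33.1% of all 33469 promoters of the table and in 50.1% of the 12519 that belong to genes on the array. The CCAAT box, CCAAT on either strand, stood in 4 of the 8, those of Bckdhb, Dbt, Ivd and Mccc1, against 37.5% of all promoters. The E-box CACGTG was in 0 of 8, against 6.42% of all promoters, and the extended half-site of estrogen-related receptors, AAGGTCA on either strand, in 0 of 8, against 4.61%. The promoters of Bcat2 (chr1:105178889-105179188, plus strand), Bckdhb (chr8:93725027-93725326, plus strand) and Auh (chr17:12481171-12481470, plus strand) are printed because these 3 genes stand for the transaminase, the dehydrogenase complex and the leucine route in the results that follow. Capitals mark the GC boxes in all of them and, in Bckdhb, the CCAAT boxes too. These matches of letters describe the promoters and do not show that a factor binds there.
Bcat2: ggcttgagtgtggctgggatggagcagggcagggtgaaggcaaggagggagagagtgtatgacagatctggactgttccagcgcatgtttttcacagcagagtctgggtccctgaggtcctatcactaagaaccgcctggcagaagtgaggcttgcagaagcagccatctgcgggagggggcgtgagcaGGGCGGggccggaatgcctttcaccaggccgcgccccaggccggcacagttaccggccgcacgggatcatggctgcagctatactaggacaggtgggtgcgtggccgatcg
Bckdhb: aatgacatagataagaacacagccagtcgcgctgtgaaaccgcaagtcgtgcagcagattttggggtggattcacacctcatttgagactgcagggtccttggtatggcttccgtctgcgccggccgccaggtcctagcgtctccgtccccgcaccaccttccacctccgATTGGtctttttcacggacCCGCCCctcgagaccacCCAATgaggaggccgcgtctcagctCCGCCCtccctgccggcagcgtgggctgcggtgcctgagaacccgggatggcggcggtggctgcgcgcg
Auh: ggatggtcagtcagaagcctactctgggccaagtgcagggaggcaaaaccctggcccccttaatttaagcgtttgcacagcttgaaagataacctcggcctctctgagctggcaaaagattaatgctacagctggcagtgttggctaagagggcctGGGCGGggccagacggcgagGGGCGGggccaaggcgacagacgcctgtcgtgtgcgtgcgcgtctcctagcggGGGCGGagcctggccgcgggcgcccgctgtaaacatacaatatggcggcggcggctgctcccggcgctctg

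In the LV of rats with L-MI, 2 of the 10 genes were lower than in sham with a fold of 1.3 or more and an adjusted p up to 0.05, Bckdha and Bcat2. Of all transcript clusters, 1.14% were called lower by this rule and 2.08% were called higher. At the adjusted p alone, 8 of the 10 genes were lower, all except Ppm1k and Mccc1, against 4.91% of all transcript clusters. The log2 difference was negative for 10 of 10 genes, with a median of -0.27, while 52.0% of all transcript clusters were negative and their median was -0.006. In bulk tissue, fewer cells of a type and less RNA per cell cannot be told apart.

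**Figure D1:**
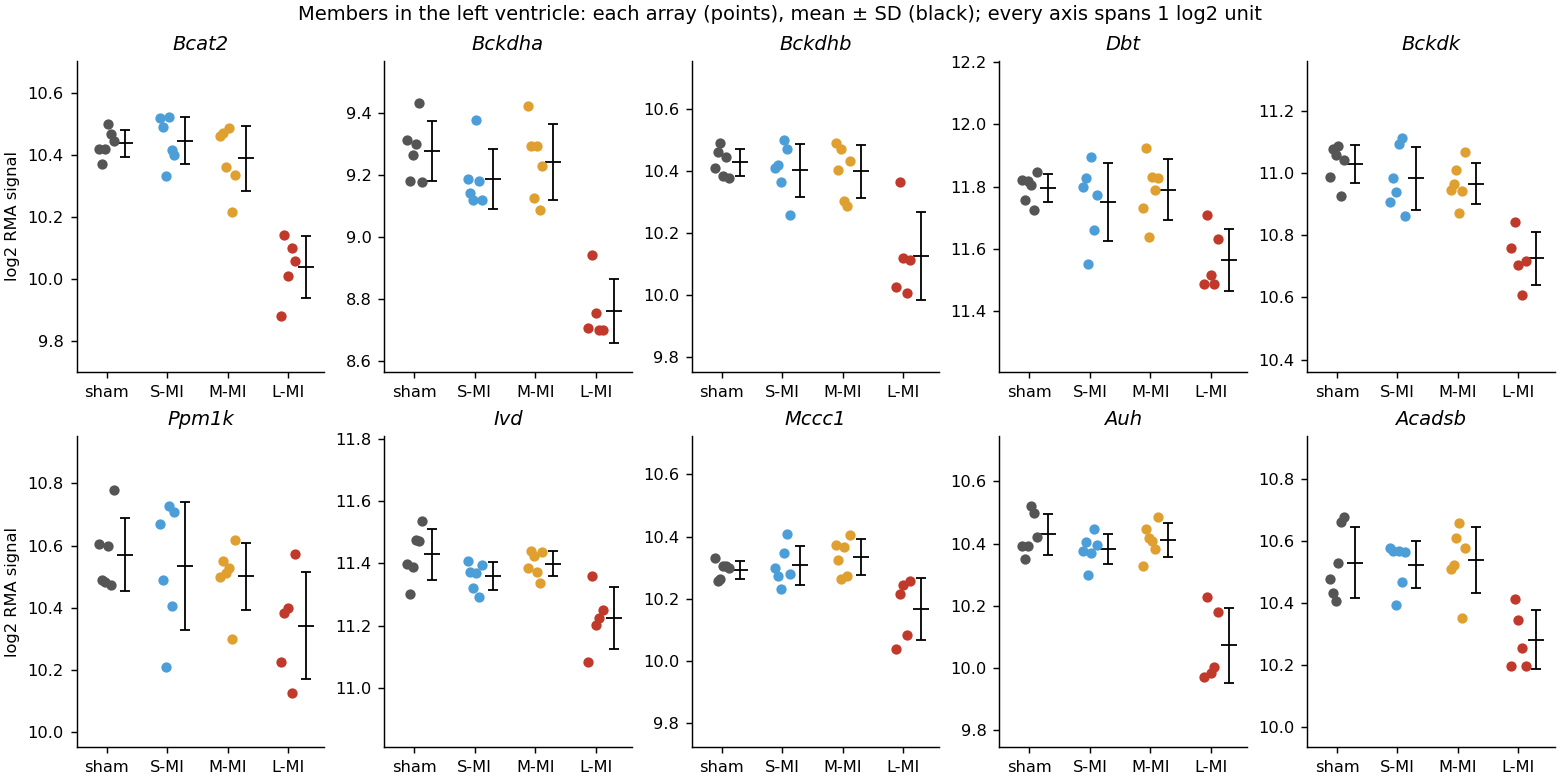
Log2 RMA signal (vertical axes, each spanning 1 unit) of the 10 genes in the 23 LV arrays, by group. Points are arrays and black bars are mean ± SD. The 5 L-MI arrays lie below all 6 sham arrays for Bcat2, Bckdha, Bckdhb, Dbt, Bckdk and Auh, while S-MI and M-MI overlap with sham throughout.

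The first enzyme of the pathway, the mitochondrial transaminase Bcat2, had log2 signals of 9.88, 10.14, 10.01, 10.10 and 10.06 in L-MI replicates 1 to 5. The 6 sham arrays ran from 10.37 to 10.50 with a median of 10.43, the S-MI arrays from 10.33 to 10.52 with a median of 10.45, and the M-MI arrays from 10.22 to 10.49 with a median of 10.41. Every L-MI array was thus below every array of the other 3 groups. The log2 difference between L-MI and sham was -0.40 ± 0.055 (SE), and the transcript fell by 24.1% (1.32-fold, adjusted p = 4.76e-05). This fold lies just above the threshold of 1.3. Without L-MI replicate 1 the log2 difference was -0.36 (adjusted p = 2.62e-04), below the fold threshold, and after a repeated quantile normalization it was -0.37, also below it.

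The dehydrogenase complex was represented by 3 genes, Bckdha and Bckdhb, which encode the alpha and beta subunits of the decarboxylase that opens the reaction, and Dbt, which encodes the transacylase core. Bckdha had log2 signals of 8.71, 8.94, 8.75, 8.70 and 8.70 in L-MI replicates 1 to 5, against 9.18 to 9.43 (median 9.28) in sham, 9.12 to 9.38 (median 9.16) in S-MI and 9.09 to 9.42 (median 9.26) in M-MI. No L-MI array reached the range of any other group. Bckdha fell by 30.1%, with a log2 difference of -0.52 ± 0.065 (SE, 95% confidence interval -0.65 to -0.38, adjusted p = 2.09e-05), the largest of the 10 genes. Without L-MI replicate 1 it was -0.50 (adjusted p = 1.33e-04) and was still called.

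Bckdhb, the partner subunit of Bckdha, had log2 signals of 10.03, 10.36, 10.12, 10.01 and 10.11 in L-MI, against 10.38 to 10.49 (median 10.43) in sham. The highest L-MI array, replicate 2, lay just under the lowest sham array and within the ranges of S-MI and M-MI. The log2 difference was -0.30 ± 0.059 (SE, adjusted p = 0.00145), at 1.23-fold under the fold threshold. Dbt had log2 signals of 11.48, 11.71, 11.51, 11.49 and 11.63 in L-MI, against 11.72 to 11.85 (median 11.81) in sham. Its log2 difference was -0.23 ± 0.060 (SE, adjusted p = 0.0156), with the L-MI arrays below all sham arrays but overlapping with S-MI and M-MI. Without L-MI replicate 1 its adjusted p was 0.0515.

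Because both subunits of the decarboxylase are needed in equal numbers, the difference between their log2 signals was also taken within each array, a comparison chosen after the values had been seen. Bckdha minus Bckdhb was -1.37 ± 0.053 in L-MI (SD, n = 5) and -1.15 ± 0.102 in sham (SD, n = 6). The 2 groups did not overlap, and the change of -0.22 had a two-sided exact permutation p of 0.00433, the smallest that 5 against 6 arrays allow. Since the larger difference of Bckdha had prompted the comparison, this p describes the same arrays and is not independent of it. The signals of 2 transcript clusters changed unequally here. This does not show that the transcripts themselves did, and it gives no level of either protein.

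Of the regulators of the complex, the inhibiting kinase Bckdk had log2 signals of 10.76, 10.84, 10.70, 10.61 and 10.72 in L-MI, against 10.93 to 11.09 (median 11.05) in sham, 10.86 to 11.11 (median 10.96) in S-MI and 10.87 to 11.07 (median 10.95) in M-MI. All L-MI arrays were below all arrays of the other 3 groups, with a log2 difference from sham of -0.30 ± 0.053 (SE, adjusted p = 4.67e-04) at 1.23-fold. The activating phosphatase Ppm1k had log2 signals of 10.23, 10.38, 10.40, 10.12 and 10.57 in L-MI, against 10.47 to 10.78 (median 10.54) in sham. Its arrays overlapped between all groups, and the log2 difference of -0.23 ± 0.091 (SE) missed the threshold (adjusted p = 0.128). Bckdk minus Ppm1k within an array was 0.38 ± 0.159 in L-MI and 0.46 ± 0.122 in sham (SD, n = 5 and 6), a change of -0.07 that was within the spread of the arrays (two-sided exact permutation p = 0.398).

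In the leucine route, Auh encodes the hydratase that acts on methylglutaconyl-CoA. Its log2 signals were 9.97, 10.23, 9.98, 10.001 and 10.18 in L-MI, against 10.35 to 10.52 (median 10.41) in sham, 10.30 to 10.45 (median 10.39) in S-MI and 10.33 to 10.49 (median 10.41) in M-MI. The L-MI arrays were below all others, and the log2 difference from sham was -0.36 ± 0.050 (SE, adjusted p = 6.30e-05), which at 1.28-fold stood just under the fold threshold. Auh passed that threshold without L-MI replicate 2 (-0.40), without L-MI replicate 5 (-0.38) and with each array centred on its median (-0.39). Bcat2 and Auh thus lay just inside and just outside the rule, with folds of 1.32 and 1.28.

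Ivd, the isovaleryl-CoA dehydrogenase that follows the complex in the leucine route, ran from 11.08 to 11.36 in L-MI and from 11.30 to 11.54 in sham, with a log2 difference of -0.20 ± 0.048 (SE, adjusted p = 0.00671). Mccc1, the biotin-carrying alpha subunit of methylcrotonyl-CoA carboxylase, ran from 10.04 to 10.26 in L-MI and from 10.26 to 10.33 in sham, with a log2 difference of -0.13 ± 0.046 (SE) that did not pass (adjusted p = 0.0933). Acadsb, the acyl-CoA dehydrogenase of the isoleucine route, ran from 10.20 to 10.41 in L-MI and from 10.41 to 10.68 in sham, with a log2 difference of -0.25 ± 0.062 (SE, adjusted p = 0.0109). For these 3 genes at least 1 L-MI array was within the range of sham.

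Across the 10 genes, 6 had all L-MI arrays below all sham arrays, Bcat2, Bckdha, Bckdhb, Dbt, Bckdk and Auh. Of all transcript clusters, 3.87% had this pattern. For Bcat2, Bckdha, Bckdk and Auh, the L-MI arrays also lay below all S-MI and all M-MI arrays. The share of all transcript clusters with this wider pattern is not given here, so how unusual it is cannot be read from it. Among the L-MI arrays, replicate 1 was the lowest for 5 genes, replicate 4 for 4 and replicate 5 for 1, while replicate 2 was the highest for 8 and replicate 5 for 2. The array whose description speaks of compensated injury was thus often the lowest of its group and for none of the 10 genes the highest. Without it, the log2 difference from sham was negative for 10 of 10 genes with a median of -0.25. In this refit 1 gene was called by fold and adjusted p, and 7 passed the adjusted p alone. The share of all transcript clusters in this refit is not given here, and the shares above belong to the fit with all arrays.

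In hearts with a small or a moderate infarct no member was called, although most differences from sham were slightly negative. Between M-MI and sham, 0 of 10 genes were called, as were 0.0% of all transcript clusters, and 0 of 10 reached an unadjusted p under 0.05 in limma, against 2053 transcript clusters in all. The log2 differences ran from -0.07 for Ppm1k to 0.04 for Mccc1, and their 95% confidence intervals from -0.25 to 0.13 in all. Between S-MI and sham, 0 of 10 genes and 0.0% of all transcript clusters were called, with 0 of 10 genes and 1850 transcript clusters at an unadjusted p under 0.05. The log2 differences ran from -0.09 for Bckdha to 0.01 for Mccc1, with intervals from -0.22 to 0.14. For Bckdha, the interval was -0.16 to 0.09 in M-MI and -0.22 to 0.04 in S-MI, so a difference as large as the -0.52 of L-MI lay outside both. Of the 10 genes, 8 had a negative difference in M-MI (median -0.03, with 51.3% of all transcript clusters negative) and 8 in S-MI (median -0.04, with 48.9% negative). The difference seen in L-MI lay outside the interval of M-MI for 9 of 10 genes, all except Ppm1k, and outside that of S-MI for 10 of 10. This leaves out the error of the L-MI difference, which rests on the same sham arrays, so it is no test between infarct sizes. In the direct limma test against S-MI, Dbt, Ivd, Mccc1 and Ppm1k did not pass the adjusted p.

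**Figure D2:**
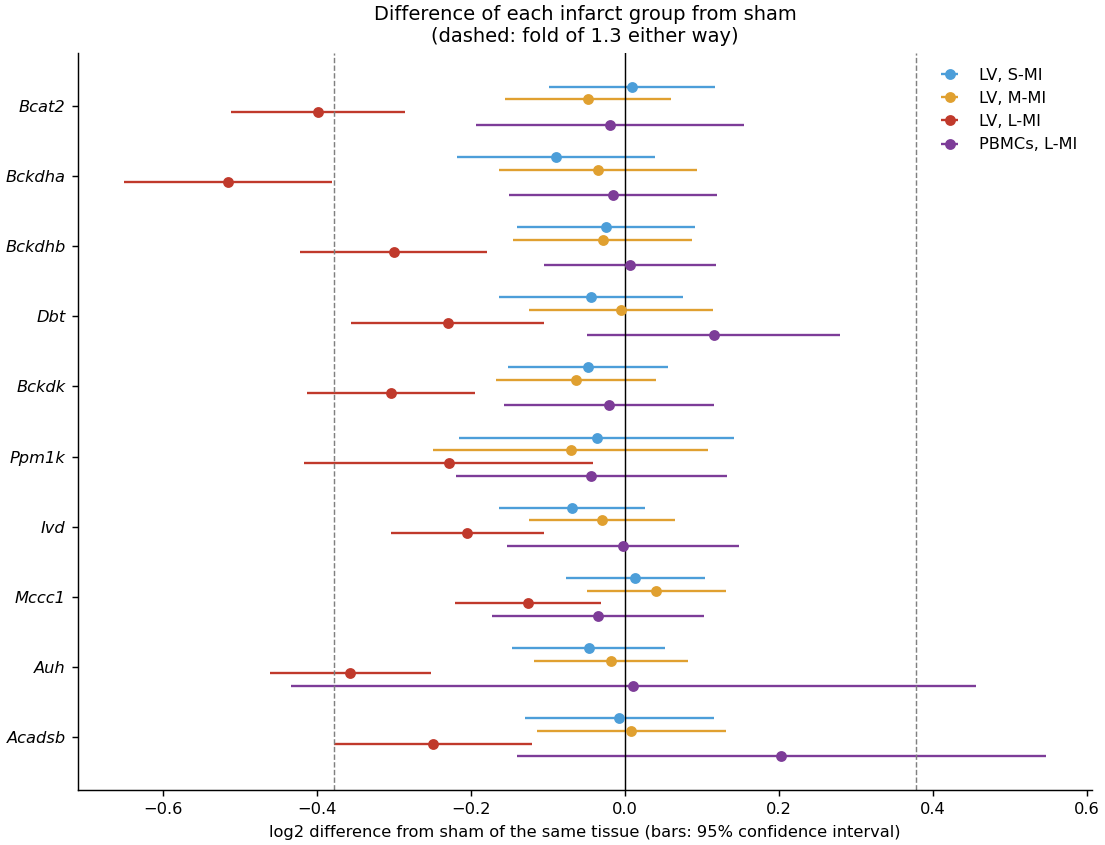
Log2 difference from sham of the same tissue (horizontal axis) for the 10 genes, with 95% confidence intervals, in the LV of S-MI, M-MI and L-MI and in PBMCs of L-MI. Dashed lines mark a fold of 1.3. In LV, L-MI has the most negative difference for each of the 10 genes, but for some, among them Ppm1k and Mccc1, its interval overlaps with those of S-MI and M-MI. In PBMCs all intervals include 0 and those of Auh and Acadsb are wide.

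The difference between infarct sizes was tested directly. Against M-MI, Bckdha was called lower in L-MI, with a log2 difference of -0.48 ± 0.065 (SE, adjusted p = 4.81e-05), where 0.695% of all transcript clusters were called lower. At the adjusted p alone, 9 of 10 genes were lower in L-MI than in M-MI, all except Ppm1k, against 3.03% of all transcript clusters. Bcat2 had a log2 difference of -0.35 (adjusted p = 1.95e-04), under the fold threshold, and Mccc1, which missed the threshold against sham, had -0.17 (adjusted p = 0.0255). Without L-MI replicate 1, 6 of 10 genes passed the adjusted p alone. Without M-MI replicate 5, in which Bcat2 was lowest, Bcat2 was called too at -0.38. The shares of 0.695% and 3.03% belong to the fit with all arrays, and none is given for these refits.

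Against S-MI, Bcat2 (-0.41 ± 0.055, SE, adjusted p = 6.70e-05) and Bckdha (-0.43 ± 0.065, SE, adjusted p = 2.34e-04) were called lower in L-MI on the log2 scale, where 0.911% of all transcript clusters were. At the adjusted p alone, 6 of 10 genes were lower, Bcat2, Bckdha, Bckdhb, Bckdk, Auh and Acadsb, against 4.12% of all transcript clusters. Without L-MI replicate 1, Bcat2 was at -0.37 and no longer called, and 5 of 10 genes passed the adjusted p alone. The share of 4.12% belongs to the fit with all arrays, and none is given for this refit. The comparisons with sham, M-MI and S-MI share the L-MI arrays and are not independent.

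Other enzymes of BCAA breakdown were lowered in L-MI as well, with 1 in the opposite direction. Of 18 listed symbols 13 were measured, and 11 of the 13 were lower and 1 higher than in sham at the adjusted p alone, with a median log2 difference of -0.24. By fold and adjusted p, 1 was called lower and 1 higher. The one called lower was Mcee, the methylmalonyl-CoA epimerase that serves isoleucine and valine carbon, with a log2 difference of -0.41 ± 0.082 (SE, adjusted p = 0.00161). Pccb, the beta subunit of propionyl-CoA carboxylase, was at -0.37 (adjusted p = 0.00151), whereas its partner subunit Pcca, named after its value was seen, was at -0.03 (adjusted p = 0.732). Hibch, a hydrolase of the valine route, was at -0.35 (adjusted p = 7.44e-04), and Mccc2, the partner subunit of Mccc1, at -0.34 (adjusted p = 1.82e-04).

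The gene called higher was Bcat1, which encodes the cytosolic transaminase, with a log2 difference of 0.62 ± 0.098 (SE, adjusted p = 1.89e-04). It went against its mitochondrial counterpart Bcat2. Bcat1 minus Bcat2 within an array was -3.67 ± 0.356 in L-MI and -4.70 ± 0.125 in sham (SD, n = 5 and 6), a change of 1.02 without overlap between the groups. This is given as a description with no test, since both genes had already been called in opposite directions. The difference between 2 probe sets gives a change between groups but no relative abundance of the transcripts.

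**Figure D3:**
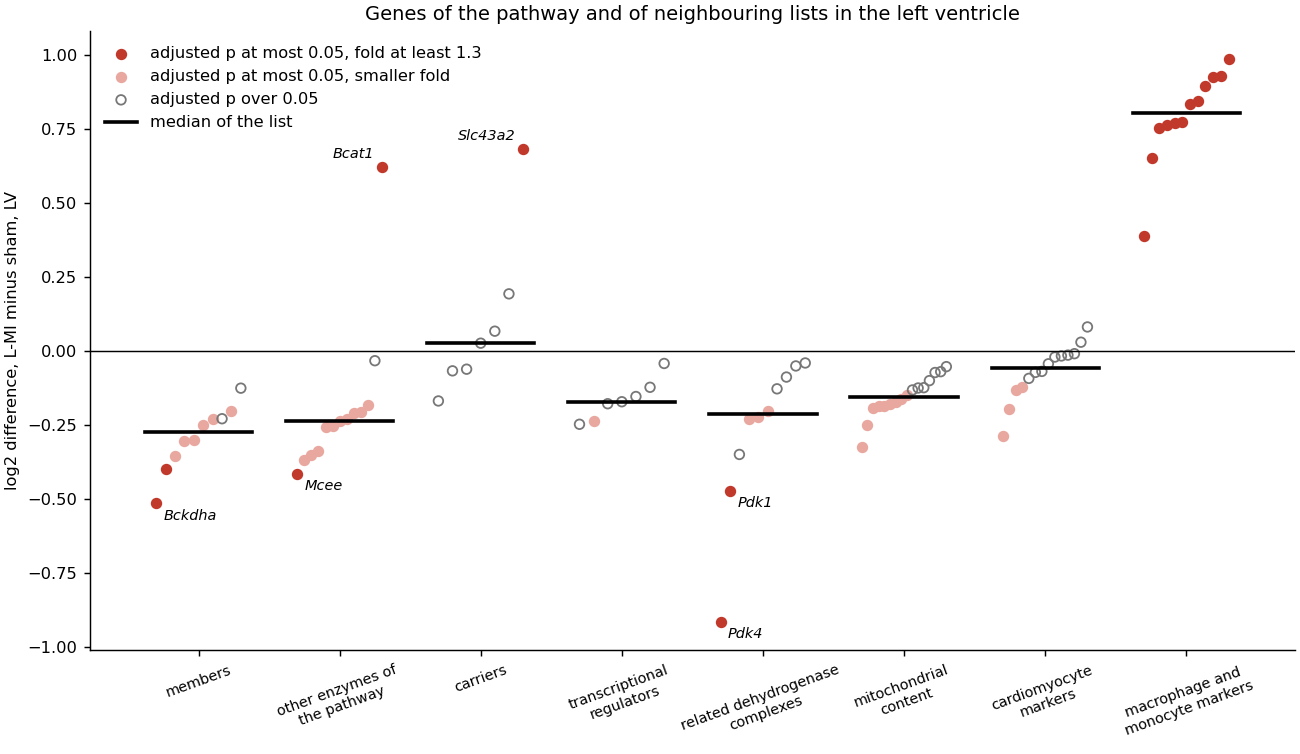
Log2 difference between L-MI and sham in LV (vertical axis) for each measured gene of 8 lists, sorted within a list, with the list's median as a bar. Filled red points passed fold and adjusted p, pale points the adjusted p alone. The 10 BCAA genes and the other enzymes of the pathway have medians of -0.27 and -0.24. Related dehydrogenase complexes have a median of -0.21, mitochondrial content genes -0.16 and cardiomyocyte markers -0.06. The 12 macrophage and monocyte markers are all higher.

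Carriers of BCAAs did not move as a group. Of 7 measured, 1 was called, Slc43a2, a neutral amino acid carrier of the plasma membrane, which was higher in L-MI at 0.68 ± 0.139 (SE, log2, adjusted p = 0.00210). Slc3a2, the heavy chain shared by several amino acid carriers, was at 0.19 (adjusted p = 0.0632) and Slc25a44, the mitochondrial BCAA carrier, at -0.17 (adjusted p = 0.158). Of 7 transcriptional regulators known for metabolic genes of the heart, 7 had a negative log2 difference, with a median of -0.17, where 52.0% of all transcript clusters were negative. By fold and adjusted p 0 were called, and 1 passed the adjusted p alone, Esrra, which encodes an estrogen-related receptor (-0.24, adjusted p = 0.00159). The coactivator Ppargc1a was at -0.25 (adjusted p = 0.137) and Ppara, a receptor for fatty acids, at -0.18 (adjusted p = 0.259). Klf15, a regulator of BCAA enzyme genes named here outside the rule and after its value was seen, was at -0.17 (adjusted p = 0.352).

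The pyruvate and oxoglutarate dehydrogenase complexes are built like the branched-chain complex, and the pyruvate complex too is governed by its own kinases and phosphatases. Of 10 of their genes, 2 were called lower in L-MI, both kinases of the pyruvate complex. The median log2 difference of the 10 was -0.21, near that of the BCAA genes. Pdk4 was at -0.92 ± 0.202 (SE, log2, adjusted p = 0.00410) and Pdk1 at -0.47 ± 0.059 (SE, log2, adjusted p = 1.70e-05). Another 3 passed the adjusted p alone, among them the kinase Pdk2 (-0.23, adjusted p = 0.00111) and the oxoglutarate dehydrogenase gene Ogdh (-0.22, adjusted p = 5.68e-04). The phosphatase Pdp2 was at -0.35 (adjusted p = 0.113).

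Genes taken as measures of mitochondrial content had a median difference nearer to 0. Of 16 measured, 0 were called by fold and adjusted p and 9 were lower at the adjusted p alone, with a median log2 difference of -0.16. Tfam, a factor that maintains mitochondrial DNA, was at -0.32 (adjusted p = 2.02e-04), Sdha, of the succinate dehydrogenase, at -0.25 (adjusted p = 7.53e-04) and Uqcrc1, of respiratory complex III, at -0.19 (adjusted p = 0.00277). The mean log2 signal of the 16 genes ran from 11.42 to 11.57 in L-MI and from 11.61 to 11.64 in sham, without overlap. Each BCAA gene was therefore also expressed relative to this mean within its array, which gave 10 comparisons, chosen after the values had been seen and given with their unadjusted p.

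Relative to the mitochondrial content genes, Bckdha was lower in L-MI by a log2 difference of -0.36 and Bcat2 by -0.24, in both cases without overlap between L-MI and sham (two-sided exact permutation p = 0.00433 for each). Auh was at -0.20 (p = 0.00866), Bckdk at -0.15 (p = 0.00866) and Bckdhb at -0.15 (p = 0.0173) by the same permutation test, with overlap of the arrays. The other 5 genes did not reach an unadjusted p of 0.05, with differences from -0.09 for Acadsb to 0.03 for Mccc1. For Dbt the exact permutation p was 0.0563. These p-values rest on the same arrays in which the genes had already been found lower, so they are not independent of those results. The part of mitochondrial content in the differences of the BCAA genes was not tested.

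Markers of cell types also differed between L-MI and sham in LV, those of macrophages and fibroblasts in the opposite direction to these genes. The mean log2 signal of 12 macrophage and monocyte markers ran from 8.61 to 9.21 in L-MI and from 8.07 to 8.30 in sham, and 12 of 12 were called higher, among them Lyz2 (0.99) and C1qc (0.93). The mean of 10 fibroblast markers ran from 9.01 to 9.64 in L-MI and from 8.37 to 8.58 in sham, and 7 of 10 were called higher, with Postn at 3.0003 and Col1a1 at 1.196 on the log2 scale. The mean of 14 cardiomyocyte markers ran from 13.02 to 13.11 in L-MI and from 13.12 to 13.15 in sham, with 0 of 14 called, 4 lower at the adjusted p alone and a median log2 difference of -0.06. Of these, Myh6, which encodes the fast myosin heavy chain, was at -0.29 (adjusted p = 0.00472) and Ckm, the muscle creatine kinase, at -0.19 (adjusted p = 7.56e-04). None of these lists had a called gene in M-MI or S-MI, where 0.0% of all transcript clusters were called. Of the 12 macrophage and monocyte markers, 0 had a negative log2 difference from sham in S-MI (median 0.19) and 2 in M-MI (median 0.11). In S-MI the median was 0.03 for the fibroblast and -0.01 for the cardiomyocyte markers. The part of the change in cell types in the differences of the BCAA genes was not tested.

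The transcript clusters whose centred log2 signals were most like those of the called genes over the 23 LV arrays were looked up by the root mean square of the difference. For Bcat2 they were Pink1, a mitochondrial kinase (0.0576), Entpd6 (0.0603) and Lrrc20 (0.0760), where Bcat2 itself varied around its mean with a root mean square of 0.178. For Bckdha they were Acadvl, the very long chain acyl-CoA dehydrogenase of fatty acid oxidation (0.0917), Bcat2 (0.0939) and Tcea3 (0.0949), against 0.220 for Bckdha itself. All 5 genes other than Bcat2 were lower in L-MI than in sham by a log2 difference of -0.32 to -0.47. This is a description over arrays of 4 groups, among them the L-MI arrays in which both called genes were low.

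In PBMCs, none of the 10 genes was called between L-MI and sham by the looser rule used for blood (unadjusted p up to 0.05 with a fold of 1.2 or more), against 0.924% of all transcript clusters in either direction. At an unadjusted p under 0.05 in limma there were 0 of 10 genes and 1100 transcript clusters. The log2 differences ran from -0.04 for Ppm1k to 0.20 for Acadsb, the smallest p was 0.154, for Dbt, and every adjusted p was 0.9997. Bckdha had log2 signals of 7.71, 7.80, 7.80, 7.84 and 7.58 in L-MI and ran from 7.65 to 7.88 (median 7.75) in sham, so the groups overlapped. Its log2 difference was -0.02 with a 95% confidence interval of -0.15 to 0.12. Bcat2 had log2 signals of 8.67, 8.63, 8.44, 8.24 and 8.40 in L-MI and ran from 8.38 to 8.63 (median 8.49) in sham, with a log2 difference of -0.02 and an interval of -0.19 to 0.16. Without PBMC replicate 1 of L-MI, the log2 differences ran from -0.12 to 0.09 with 0 called.

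The effect of L-MI was then compared between the tissues as an interaction in limma over 22 arrays, because a difference that passes in LV and not in PBMCs is not thereby shown to differ. Levels were not compared, since the tissues were apparently normalized apart. The difference in effect, LV minus PBMCs, passed an adjusted p of at most 0.05 for 4 of 10 genes, all in the lower direction, against 1.16% of all transcript clusters. They were Bckdha (-0.50 ± 0.088, SE, adjusted p = 0.00211), Bcat2 (-0.38 ± 0.097, adjusted p = 0.0370), Dbt (-0.35 ± 0.093, adjusted p = 0.0486) and Bckdhb (-0.31 ± 0.081, adjusted p = 0.0409). When each of the 22 arrays was left out in turn, Bckdha passed in 22 of 22 fits, Bcat2 in 8, Bckdhb in 5 and Dbt in 3, so the calls of the last 3 depended on single arrays. Bckdk (-0.28 ± 0.081, SE, adjusted p = 0.0658) did not pass with all arrays but passed in 3 of these fits, as often as Dbt. The model takes the arrays as independent, although heart and blood were taken from the same rats by the study's methods. The shared rats were not modelled. A further limma fit took the replicate number within a tissue as a block, which joins sham and L-MI arrays of different rats. In that fit 0 of 10 genes passed, and Bckdha was at -0.50 (adjusted p = 0.0629). For Dbt, part of the difference came from the PBMCs, where its log2 difference was 0.12 ± 0.076 (SE).

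Auh and Acadsb varied far more among the PBMC arrays than the other 8 genes. The SD of the log2 signal was 0.366 in sham and 0.429 in L-MI for Auh and 0.260 and 0.346 for Acadsb, whereas for the other 8 genes it lay between 0.059 and 0.176. Auh had log2 signals of 11.18, 10.22, 10.67, 10.26 and 10.99 in L-MI and ran from 10.004 to 11.03 in sham. Acadsb had 10.66, 9.99, 9.97, 9.85 and 10.43 in L-MI and ran from 9.57 to 10.26 in sham. The arrays that were high in one were mostly high in the other, in both groups.

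These values moved with platelet genes. The mean log2 signal of Pf4, Ppbp and Gp9, which encode products of platelets, was set against each of the 10 genes over the 11 PBMC arrays, along with 6 other sets of blood cell markers, 70 relations in all. The platelet set was formed after the data had been seen, and the p-values that follow do not take account of that choice. Auh followed it with Pearson's r = 0.965 (permutation p = 1e-05, the smallest the permutations could give, adjusted p = 0.0007) and Spearman's rho = 0.964 (permutation p = 3e-05, adjusted p = 0.0021). Without the 2 arrays farthest from the median of the platelet set r was 0.934, and within the 6 sham arrays it was 0.980 (exact permutation p = 0.00139). Acadsb followed with r = 0.875 (permutation p = 4.7e-04, adjusted p = 0.0165) and rho = 0.909 (permutation p = 3.6e-04, adjusted p = 0.0126), with r = 0.787 without the 2 farthest arrays and 0.903 within sham (exact permutation p = 0.0139).

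**Figure D4:**
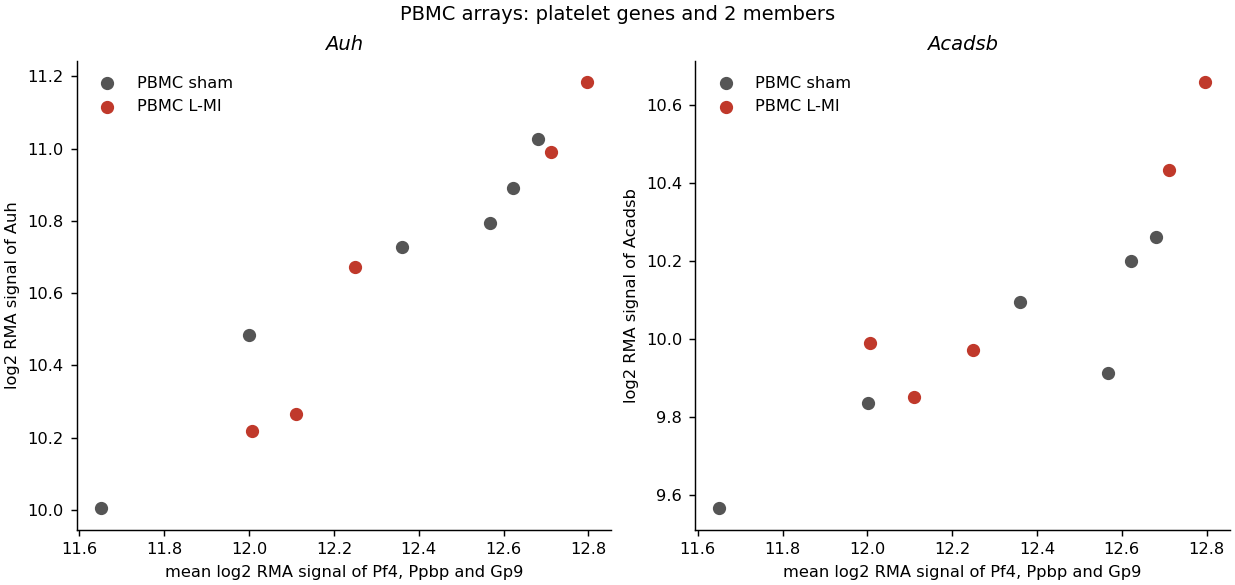
Log2 RMA signal of Auh and of Acadsb (vertical axes) against the mean log2 signal of the platelet genes Pf4, Ppbp and Gp9 (horizontal axes) in the 11 PBMC arrays, sham in grey and L-MI in red. Both genes rise with the platelet genes (r = 0.965 and 0.875), and sham and L-MI arrays lie along the same trend.

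The other 68 relations did not pass the adjustment. The within-group value for the 5 L-MI arrays alone is not given, because they are too few for a correlation. With the platelet mean as a covariate, an alternative chosen after seeing the data, 0 of 10 genes were called between L-MI and sham. The SE of the log2 difference of Auh was then 0.066 in place of 0.205, with a difference of -0.05, and Acadsb was at 0.16 ± 0.079 (SE). A smaller SE of Auh follows from its correlation with the same platelet genes and is no separate result. In the LV the platelet and erythroid markers had 0 of 5 called in L-MI.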

How the data were processed

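The deposited values are log2 signals that the authors made from Affymetrix Rat Gene ST arrays with RMA (background correction, quantile normalization and summary per transcript cluster) and Partek software, versions not given in the sources used here. No source names the log base, and log2 was assumed because RMA uses it. Array medians ran from 6.52 to 6.61 for LV and from 6.97 to 7.01 for PBMCs. Of 29214 transcript clusters, 15310 carry 1 symbol in the platform annotation, 323 several and 13581 none. No filter was applied.

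Models were fitted by limma 3.58.1 (lmFit and eBayes, R 4.3.3), and permutation tests run in Python 3.11.15 with scipy 1.17.1, and figures were drawn with matplotlib 3.10.9. LV contrasts came from 1 model over 23 arrays, PBMC contrasts from 11 arrays, and the tissue difference from an interaction over 22 arrays that takes them as independent. Thresholds follow the study's methods for LV (fold of 1.3, Benjamini-Hochberg adjusted p of 0.05). For PBMCs the methods give a fold of 1.2 and a p of 0.05 without saying whether it is adjusted, while the heading of the study's PBMC list speaks of adjusted values. It was taken here as unadjusted, with the adjusted p as an alternative, and the interaction used an adjusted p of 0.05. P-values were adjusted over all transcript clusters, and those of the 70 relations in PBMCs over these relations. The arrays are labelled as biological replicates, and their number limits the precision. The fits were tested on simulated data.

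All members are named, as are the genes called in L-MI and up to 3 more per list with the largest change, with exceptions marked. Of the markers, where all or most were called, only the largest are named. The members, lists and tests were chosen with earlier results of these data known.

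Alternatives were no moderation of variances, array weights, limma-trend, a fit restricted to each pair of groups, the 30% dimmest transcript clusters left out, a second quantile normalization, median centring, changed thresholds, replicate number as block, and each array left out in turn. Same-numbered arrays of different groups correlated in their deviations from the group means between -0.26 and 0.26, both extremes between LV groups of different rats. Only LV and PBMC arrays of sham, or of L-MI, could share a rat. Their correlations ran from 0.003 to 0.139 in sham (mean 0.057, against -0.011 for unlike numbers). In L-MI they ran from -0.050 to 0.107. These values do not settle whether the numbers pair rats, and the arrays were taken as independent. Raw array files were not used here.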

Additional observations from a re-analysis of the deposited data

Results flagged for a closer look

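Among 60 sets of arrays, 1 for each gene and group, 4 held an array that stood apart from the rest by Dixon's criterion at the 95% level, where chance gives about 1 in 20. Bckdha in LV was high at 9.38 in S-MI replicate 4, with the next array at 9.19. Bckdha was also high at 8.94 in L-MI replicate 2, with the next at 8.75, although this array was still below every sham array. Ppm1k in LV was low at 10.30 in M-MI replicate 5, with the next at 10.50. Ivd in PBMCs was low at 8.85 in sham replicate 6, with the next at 9.06.

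The effect of L-MI differed between LV and PBMCs, by the interaction in limma, for Bckdha (-0.50 on the log2 scale, LV minus PBMCs), Bcat2 (-0.38), Dbt (-0.35) and Bckdhb (-0.31). With single arrays left out, Bckdha passed in 22 of 22 fits, Bcat2 in 8, Bckdhb in 5 and Dbt in 3, and with the replicate number as a block none of them passed. In LV all 5 L-MI arrays were below all 6 sham arrays for each of these 4 genes, and in PBMCs the groups overlapped.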

How the results depend on the processing

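Between L-MI and sham in LV, 2 genes were called, 1 after repeated quantile normalization, 8 without the fold threshold, and 1 to 3 when single arrays were left out (1 without L-MI replicate 1, 3 without L-MI replicate 2 or 5). With each array centred on its median, Auh was called in addition. Between L-MI and M-MI the count was 1, with 9 without the fold threshold and 1 to 2 when single arrays were left out (2 without M-MI replicate 5). Between L-MI and S-MI it was 2, with 6 without the fold threshold and 1 to 2 when single arrays were left out (1 without L-MI replicate 1). The tissue difference was called for 4 genes, for 1 to 5 when single arrays were left out, and for 0 with the replicate number as a block. With that replicate block the LV and PBMC comparisons gave 2, 1, 2 and 0 for L-MI against sham, M-MI and S-MI in LV and against sham in PBMCs, as without it. Within a tissue these blocks join arrays of different rats, so they do not model heart and blood from the same rat. M-MI, S-MI and PBMCs against sham gave 0 under all alternatives run. Shares of all transcript clusters under the alternatives are not given here. In LV the log2 differences of L-MI stayed negative for 10 of 10 genes under all alternatives run, between -0.56 and -0.48 for Bckdha and between -0.43 and -0.36 for Bcat2. Differences near 0 that were never called changed sign in 11 cases for M-MI, 15 for S-MI and 26 for PBMCs. Since each gene has 1 transcript cluster, another row for a gene could not be tried, nor a separate row for PBMCs. The causes of these shifts were not tested, beyond the loss of arrays or of the fold threshold itself. The number of arrays, 5 or 6 in a group, limits the precision of all these values.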

Other observations

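Against M-MI, the cytosolic transaminase gene Bcat1 (0.49 ± 0.098, SE, log2, adjusted p = 0.00216) and the carrier gene Slc43a2 (0.62 ± 0.139, SE, log2, adjusted p = 0.00571) were also called higher in L-MI, and the kinase genes Pdk1 (-0.40) and Pdk4 (-0.999) lower. In PBMCs none of these 4 genes was called, and the effect of L-MI differed between LV and PBMCs for Slc43a2 (0.72, adjusted p = 0.00166), Pdk1 (-0.49, adjusted p = 0.00967) and Pdk4 (-0.94, adjusted p = 0.00472), while Bcat1 did not pass this test.

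In LV, the remaining marker lists gave these results for L-MI against sham. Of 6 smooth muscle and pericyte markers, 2 were called higher, Tagln (0.69) and Cnn1 (0.43). Of 7 endothelial markers 0 were called, and Tek passed the adjusted p alone at -0.17 (adjusted p = 0.0393). Of 9 T cell markers 1 was called higher, Cd4 (0.76), while the median of the list was 0.04 and 3 of the 9 were negative. Of 6 natural killer markers 1 was called lower, Klrb1a (-0.59). Neither the 3 B cell markers nor the 6 neutrophil markers measured held a called gene. In PBMCs, 1 gene of all marker lists was called, the natural killer marker Klrd1 (0.35 ± 0.133, SE, log2), which did not pass the adjusted p.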
